A study of Mus musculus with 12 samples.

Results

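The 8 genes described here encode the skeletal and cardiac myosin heavy chains, Myh1, Myh2, Myh3, Myh4, Myh6, Myh7, Myh8 and Myh13. They were chosen by name, out of 22342 protein-coding genes with an annotated promoter, and no measured value entered the choice. In the mm9 assembly (NCBI build 37) 6 of them form a cluster on chromosome 11, in the order Myh3, Myh2, Myh1, Myh4, Myh8 and Myh13 and all on the plus strand, from chr11:66891802-67185088. Myh7 and Myh6 lie in tandem on the minus strand of chromosome 14, with Myh7 upstream of Myh6, at chr14:55560758-55613471. Around them 6 histone marks were read by ChIP-seq, the sequencing of chromatin precipitated with an antibody, in C2C12, an established mouse myoblast line of the C3H strain at passages 15 to 18. Myoblasts were taken near confluence in 10% serum, and myotubes about 5 days after serum was withdrawn, when light trypsin had been used to part them from residual unfused cells. No genotype, drug or other agent differed between the cells, and 1 library stands for each mark in each cell type.

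A myosin heavy chain is the motor protein of the thick filament. It binds actin, splits ATP and sets much of the contraction speed of a muscle fibre. Myh3 encodes the embryonic and Myh8 the perinatal chain, which mark developing and regenerating muscle. Myh2, Myh1 and Myh4 encode the fast adult chains of type IIa, IIx and IIb fibres, and Myh13 encodes the fast chain of extraocular muscle. Myh7 encodes the slow chain, which is also the cardiac beta chain, and Myh6 encodes the cardiac alpha chain. H3K4me3 marks active promoters, H3K4me1 marks enhancers and promoter flanks, H3K4me2 marks both, and H3K27ac marks promoters and enhancers in use. H3K36me3 is laid down along transcribed gene bodies, and H3K27me3 is the mark of Polycomb repression.

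The files held between 1858771 and 7033100 reads per myoblast library and between 3298694 and 6271899 per myotube library. The genome mean was thus 0.727 to 2.75 reads per kb in myoblasts and 1.29 to 2.45 in myotubes. A fold is the number of fragment midpoints in a window over the number expected from the genome mean of the same library, so it is a level per length. A ratio is the myotube value over the myoblast value after scaling to total reads. Both are followed by a 95% interval that covers counting error only. A ratio of at least 2 with its interval above 1, or of at most 0.5 with its interval below 1, was called higher or lower where both libraries together held at least 10 reads. Shares of features called, and median ratios, are over those that held so many reads. Since there was no replicate, every ratio compares 2 libraries and not the conditions, and no p-value was computed. Fewer cells that carry a mark and less of the mark per cell cannot be told apart.

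The cell type markers were listed by name, with earlier results of these data known. All 10 myotube markers were called higher in H3K4me3 and in H3K27ac, and their summed H3K4me3 went from 65 to 1526 reads. Of the 8 myoblast markers 5 were called lower in H3K4me3 and 7 in H3K27ac, and none was called higher. Summed H3K4me3 went from 78 to 79 reads over 5 cardiac markers, from 79 to 65 over 4 adipocyte markers, from 7 to 5 over 3 bone markers, from 21 to 12 over 3 endothelial markers and from 17 to 5 over 3 blood markers. None of these 18 genes was called higher in H3K4me3 or H3K27ac, and the adipocyte gene Fabp4 was at 0 reads in all 4 of these libraries. The libraries also differed over the promoters with enough reads. The median promoter ratio was 0.866 for H3K4me3, 0.593 for H3K4me2, 0.890 for H3K4me1, 0.578 for H3K27ac and 0.800 for H3K27me3, so a higher call at a promoter ran against the general shift.

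The upstream sequences show where the members resemble each other. Each run below holds the 250 bases before the 5'-most annotated start of the gene, 5′ to 3′ on the strand of the gene, from the mm9 reference of strain C57BL/6J and not from C2C12. Capitals mark a 14-base run shared by Myh2, Myh1, Myh4 and Myh8, any TATAAA on the strand of the gene, and any match to the MEF2 consensus. The 4 fast-type promoters come first because the shared run links them, and Myh3 and Myh7 follow because they gained the marks without it. Myh2 lies at chr11:66984279-66984528 (+), Myh1 at chr11:67013304-67013553 (+), Myh4 at chr11:67051064-67051313 (+), Myh8 at chr11:67090376-67090625 (+), Myh3 at chr11:66891552-66891801 (+) and Myh7 at chr14:55613472-55613721 (-).
Myh2: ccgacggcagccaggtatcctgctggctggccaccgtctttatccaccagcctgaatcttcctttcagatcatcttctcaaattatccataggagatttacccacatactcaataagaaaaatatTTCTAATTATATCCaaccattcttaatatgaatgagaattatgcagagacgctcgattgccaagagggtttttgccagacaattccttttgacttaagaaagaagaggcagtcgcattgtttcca
Myh1: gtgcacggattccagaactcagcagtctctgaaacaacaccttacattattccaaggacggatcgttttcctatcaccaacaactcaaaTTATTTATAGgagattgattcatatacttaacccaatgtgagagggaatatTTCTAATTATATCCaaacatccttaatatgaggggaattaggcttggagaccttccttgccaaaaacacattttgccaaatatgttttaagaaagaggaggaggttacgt
Myh4: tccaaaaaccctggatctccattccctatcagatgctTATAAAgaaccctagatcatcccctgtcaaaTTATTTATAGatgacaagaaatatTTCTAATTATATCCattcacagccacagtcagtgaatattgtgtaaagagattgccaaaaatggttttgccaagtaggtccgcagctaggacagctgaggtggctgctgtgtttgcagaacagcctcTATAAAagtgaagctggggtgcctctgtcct
Myh8: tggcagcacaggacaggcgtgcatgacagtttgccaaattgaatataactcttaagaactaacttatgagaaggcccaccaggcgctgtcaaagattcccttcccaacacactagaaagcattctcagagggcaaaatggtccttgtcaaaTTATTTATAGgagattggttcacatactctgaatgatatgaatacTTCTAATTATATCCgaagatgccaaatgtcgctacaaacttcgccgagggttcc
Myh3: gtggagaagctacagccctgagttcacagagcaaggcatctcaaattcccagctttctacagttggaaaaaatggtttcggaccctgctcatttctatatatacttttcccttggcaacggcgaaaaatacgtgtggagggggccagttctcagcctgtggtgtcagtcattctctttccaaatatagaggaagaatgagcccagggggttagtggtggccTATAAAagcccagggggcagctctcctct
Myh7: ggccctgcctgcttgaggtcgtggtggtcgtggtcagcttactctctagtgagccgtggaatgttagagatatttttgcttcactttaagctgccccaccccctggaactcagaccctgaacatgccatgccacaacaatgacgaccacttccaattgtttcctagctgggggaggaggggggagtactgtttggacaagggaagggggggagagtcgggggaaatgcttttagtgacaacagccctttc

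The run TTCTAATTATATCC began 125 bases before the start in Myh2, 110 in Myh1, 158 in Myh4 and 54 in Myh8. Searched on the strand of the gene, it was found in 4 of the 22342 promoter windows of this length, which are these 4. Myh2, Myh1 and Myh4 shared a longer run of 20 bases around it. Myh1 and Myh8 shared another run, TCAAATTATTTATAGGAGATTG, of 22 bases, which holds the MEF2 match and was found in 2 windows in all. The MEF2 consensus, whose reverse complement is the same pattern, matched Myh1, Myh4 and Myh8 and 2.94% of all windows. TATAAA was found on the strand of the gene 29 bases before the start of Myh3, 31 and 213 before that of Myh4 and 46 before that of Myh13, and in 8.37% of all windows. With its reverse complement TTTATA, which overlaps the MEF2 match in Myh1, Myh4 and Myh8, the share of windows was 12.3%.

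The E box CANNTG, which reads the same on both strands as a pattern, was found in Myh3, Myh4, Myh8, Myh13, Myh6 and Myh7, against 63.4% of all windows. The MCAT motif CATTCC or its reverse complement was found in Myh4 and Myh7, against 11.4%. The CArG box matched Myh4 alone among the members, against 1.33%. The windows held 37.6% to 54.0% G and C and 1 to 6 CpG sites, where the median window held 54.4% and 9. The shared run was thus found at Myh2, which gained no H3K4me3, as well as at the 3 promoters that did. A match is a run of letters and shows no binding.

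H3K4me3 rose at the promoters of 5 of the 8 genes, within 1 kb of the transcription start site (TSS). Of the 12509 promoters with enough reads 3.74% were called higher. In myotubes 5 of the 8 members lay above the genome mean, as did 53.8% of all promoters, so it was the change and not the presence of the mark that was uncommon. The mark was spread over the developmental, fast and slow genes, and it was near the genome mean at Myh2, Myh13 and Myh6 in both cell types.

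Myh3, the embryonic gene, held 6 H3K4me3 reads in myoblasts and 106 in myotubes. These are 2.77-fold (1.01 to 6.02) and 41.1-fold (33.6 to 49.7) the genome mean, and the ratio was 14.9 (6.61 to 41.4). Myh1, the IIx gene, went from 1 read to 85, which gave 33.0-fold (26.3 to 40.7) in myotubes and a ratio of 71.5 with a wide interval (12.5 to 2857). The 2 genes thus stood at levels whose intervals overlap, above 88.1% and 81.2% of all promoters.

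Myh7, the slow gene, went from 4 to 37 reads, or to 14.3-fold (10.1 to 19.8), with a ratio of 7.78 (2.80 to 30.1). Against the 1 Mb around the locus in place of the genome mean, the Myh7 H3K4me3 myotube TSS fold was 6.89. Myh8, the perinatal gene, went from 0 to 24 reads, or to 9.31-fold (5.96 to 13.8). Its ratio was 6.73 against a floor of 3 reads in the myoblast library, and the interval of the ratio began at 5.06. Myh4, the IIb gene, went from 2 to 21 reads, or to 8.14-fold (5.04 to 12.4), with a ratio of 8.83 (2.16 to 77.7). The myotube order was therefore Myh3 and Myh1, then Myh7, then Myh8 and Myh4. The intervals of Myh3 and Myh1, of Myh7 and Myh8, of Myh7 and Myh4, and of Myh8 and Myh4 overlapped, and those of Myh3 and Myh1 lay above the other 3.

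At the other 3 promoters the counts were alike in both cell types. Myh2 held 3 reads in each library, Myh13 held 5 in each and Myh6 held 1 in each. Their myotube levels were 1.16-fold (0.240 to 3.40), 1.94-fold (0.629 to 4.52) and 0.388-fold (0.00982 to 2.16). With so few reads a modest change would not be detectable at this depth.

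**Figure D1:**
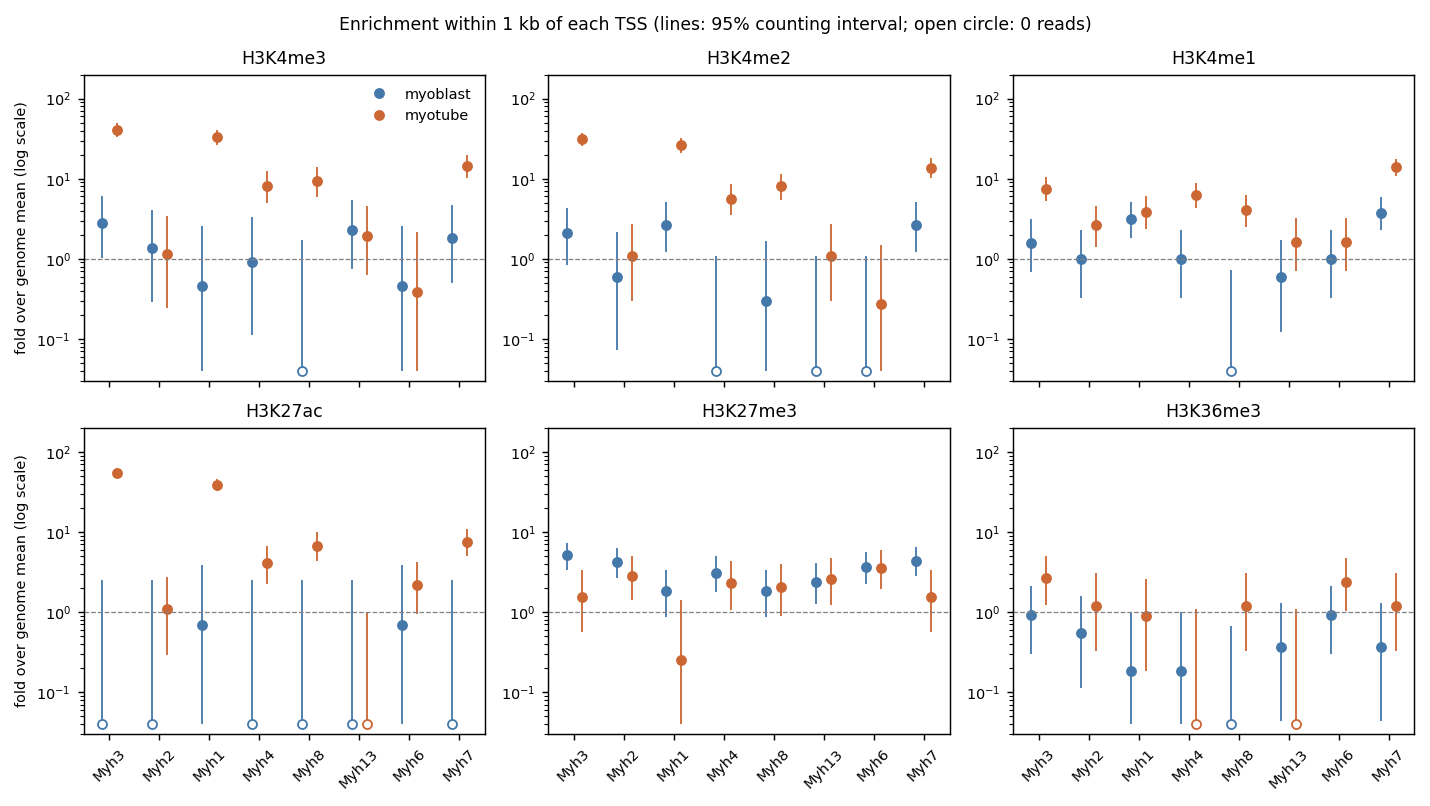
Fold over the genome mean within 1 kb of each member's TSS on a log axis, 1 panel per mark, with myoblasts in blue and myotubes in orange. Points are single libraries, lines are 95% counting intervals cut at the foot of the axis, open circles are counts of 0 and the dashed line is the genome mean. In H3K4me3 the myotube points of Myh3 (41.1), Myh1 (33.0), Myh7 (14.3), Myh8 (9.31) and Myh4 (8.14) stand apart from the myoblast points, while Myh2, Myh13 and Myh6 do not.

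The other active marks rose at the same 5 promoters, with H3K4me1 at Myh1 as the exception. H3K4me2 was called higher at all 5 members with enough reads, against 2.63% of promoters with enough reads. It went from 7 to 116 reads at Myh3, from 9 to 97 at Myh1, from 0 to 21 at Myh4, from 1 to 30 at Myh8 and from 9 to 51 at Myh7. Myh3 and Myh1 again reached the highest levels, 31.2-fold (25.8 to 37.4) and 26.1-fold (21.1 to 31.8). H3K4me2 at Myh2 and Myh13 reached 4 reads and at Myh6 1 read in myotubes.

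H3K27ac was called higher at the same 5 members, the only ones with enough reads, against 4.73% of promoters with enough reads. In the myoblast library Myh3, Myh4, Myh8 and Myh7 held 0 reads and Myh1 held 1. In myotubes Myh3 held 201 reads, or 54.4-fold (47.1 to 62.4). Its ratio was 26.4 against a floor of 3 myoblast reads, and the interval of the ratio began at 21.2. Myh1 held 144, or 39.0-fold (32.9 to 45.9), with a ratio of 56.6 (10.0 to 2253).

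The remaining 3 H3K27ac promoters were much weaker. Myh7 held 28 reads, Myh8 25 and Myh4 15, or 7.57-fold, 6.76-fold and 4.06-fold. Against a floor of 3 myoblast reads their ratios were 3.67, 3.28 and 1.97, and the intervals of the ratios began at 2.79, 2.47 and 1.41. The call at Myh4 thus rests on the count of 0 in myoblasts, since its ratio against the floor was under 2. The myoblast H3K27ac library was the smallest of the 12, and with the larger library thinned to its size the call was kept at Myh3 and Myh1 alone. Myh13 held 0 reads in both H3K27ac libraries, which gives 0 to 0.998-fold in the myotube library. Myh2 went from 0 to 4 reads and Myh6 from 1 to 8.

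H3K4me1 was called higher at 4 of the 8 members, all with enough reads, against 7.28% of promoters with enough reads. Myh7 had the highest level in both cell types, with 19 and 68 reads, or 3.75-fold (2.26 to 5.86) and 13.9-fold (10.8 to 17.6). Its myotube level was above that of 99.7% of promoters. H3K4me1 went from 8 to 37 reads at Myh3, from 5 to 31 at Myh4 and from 0 to 20 at Myh8. At Myh2 it went from 5 to 13 reads, to 2.65-fold (1.41 to 4.53), above the genome mean. The Myh2 ratio of 2.68 (0.898 to 9.62) was not called. Myh1 was already marked in myoblasts, with 16 reads or 3.16-fold (1.81 to 5.13), and held 19 in myotubes, a ratio of 1.23 (0.597 to 2.55). Thus Myh7 and Myh1 were the 2 members with H3K4me1 above the genome mean at the TSS in myoblasts.

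The shape of the signal differed between the strongest promoters. In 500-bp bins around the Myh3 TSS, myotube H3K4me3 was highest from 1500 to 2000 bp downstream, with 52 reads against 4 in myoblasts, and 29 reads were still counted from 2500 to 3000 bp. Myotube H3K27ac at Myh3 peaked within the first 500 bp after the TSS with 67 reads and held 38 reads as far as 3500 bp upstream. At Myh1 the H3K4me3 signal had 2 crests, with 26 reads from 1500 to 1000 bp upstream and 33 from 500 to 1000 bp downstream, and 13 in the 500 bp before the TSS.

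The upstream crest of Myh1 lies beside another annotated start. The TSS of the antisense transcript 9430073C21Rik, on the minus strand at chr11:67009182-67012736, is 904 bp upstream of that of Myh1. Within 1 kb of it H3K4me3 went from 1 to 79 reads and H3K27ac from 1 to 163, and much of this window is shared with Myh1. The antisense gene Gm12300 starts 239 bp upstream of the 5'-most start of Myh4, and its window held 21 myotube H3K4me3 reads. ChIP-seq carries no strand, so these reads cannot be assigned to 1 gene of a pair. These transcripts were looked up after the values were seen.

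H3K36me3 rose along nearly all the gene bodies. From 1 kb after the TSS to the end of the gene, 7 of the 8 members were called higher, all but Myh13, against 7.40% of gene bodies. In myotubes the same 7 lay above the genome mean, as did 54.9% of all bodies. In myoblasts none of the 8 lay above it, against 54.5% of bodies. Of the positions in the bodies 87.2% to 97.8% were unique at the read length.

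Myh3 stood first, with 44 reads in myoblasts and 477 in myotubes, or 0.697-fold and 12.3-fold (11.2 to 13.5), a ratio of 17.7 (13.0 to 24.7). Myh7 went from 26 to 192 reads, or to 4.98-fold, with a ratio of 12.04 (7.97 to 18.9). Myh1 went from 29 to 174 reads, or to 4.40-fold, with a ratio of 9.78 (6.58 to 15.0). Myh3 lay above both beyond its interval, whereas those of Myh7 and Myh1 overlapped.

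Lower levels were reached by the 4 other called bodies. Myh6 went from 31 to 108 reads (2.67-fold, ratio 5.68), Myh2 from 22 to 100 (2.34-fold, ratio 7.41), Myh8 from 30 to 118 (2.32-fold, ratio 6.41) and Myh4 from 19 to 67 (1.86-fold, ratio 5.75). Their myotube levels overlapped. Myh13 held 53 reads in myoblasts and 41 in myotubes, or 0.394-fold and 0.497-fold (0.357 to 0.674), below the genome mean in both. At the TSS only Myh3 and Myh6 had enough H3K36me3 reads, and 0 of these 2 were called higher, against 4.22% of promoters.

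Myh2 and Myh6 thus gained H3K36me3 without H3K4me3 at their own annotated start, and the reads were not even along either gene. The body of Myh2 was split into 4 equal parts from 5' to 3'. Its myotube reads were 14, 9, 10 and 67, so that the last part stood at 6.28-fold and the part before it at 0.938-fold. The antisense gene Gm10995 overlaps the last part, all of the part before it and some of the second, and 9430073C21Rik overlaps the last part. Without the stretches that opposite-strand genes overlap, 9.24 kb of Myh2 remained, with 6 and 20 reads, 1.28-fold (0.784 to 1.98) in myotubes and a ratio of 5.44 (2.11 to 16.5). Its level was then within counting error of the genome mean, although the call was kept. Likewise 9.40 kb of Myh1 remained at 3.98-fold with a ratio of 10.3.

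In Myh6 the myotube reads of the 4 parts were 38, 20, 28 and 22, and the part nearest to Myh7 was the highest at 3.76-fold. Between the end of Myh7 and the start of Myh6, leaving out the 1 kb next to that start, 2.76 kb went from 2 to 26 reads, or to 5.59-fold, a ratio of 21.2 (5.31 to 184). The last part of Myh7 stood at 6.33-fold. In the gap 12 of the myotube reads lay from 3000 to 3500 bp upstream of the Myh6 TSS, next to the end of Myh7. The window at the Myh6 TSS held 5 and 8 H3K36me3 reads, a ratio of 2.61 (0.753 to 10.1), and was not called. H3K4me3 held 2 and 1 reads in the gap, too few to call. In Myh3 the 4 parts rose from 95 and 84 to 142 and 156 reads. In Myh4 they were 7, 13, 19 and 28.

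**Figure D2:**
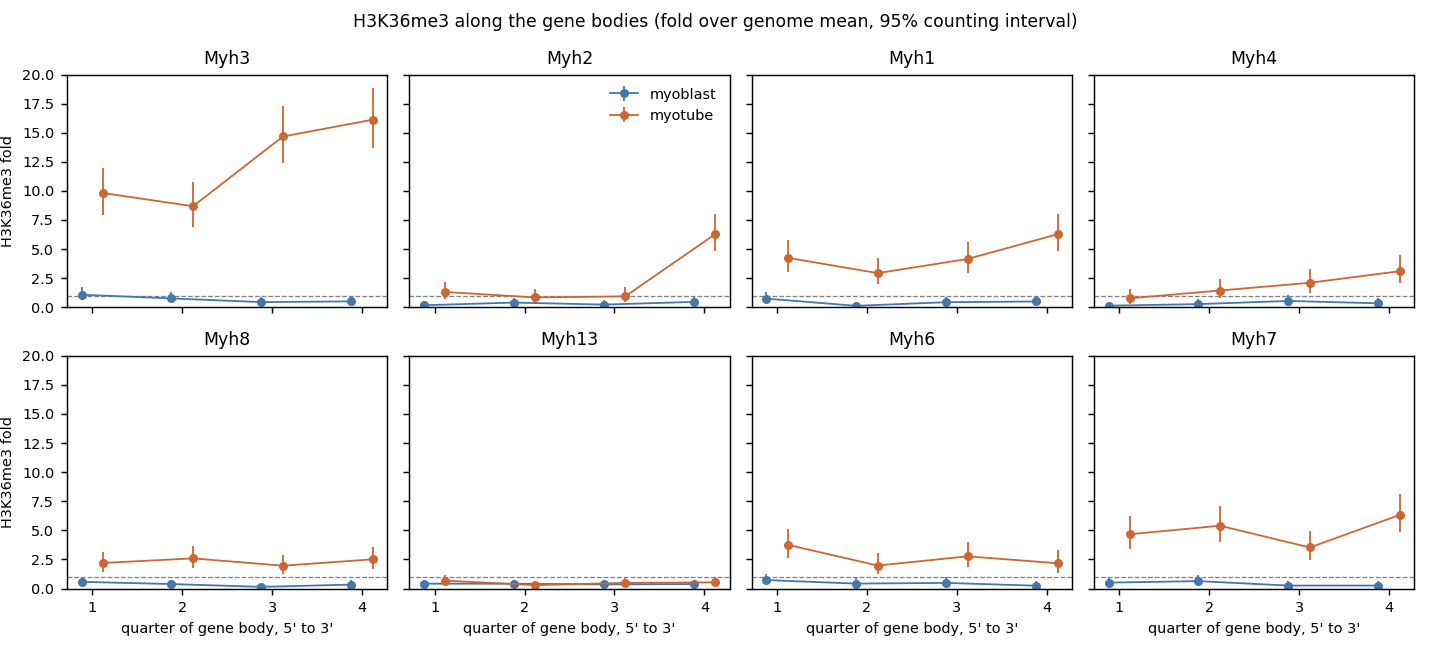
H3K36me3 fold over the genome mean in 4 equal parts of each gene body, from 5' to 3', for myoblasts (blue) and myotubes (orange), with 95% counting intervals and the genome mean as a dashed line. Myh3 reaches 16.1-fold in its last part, Myh2 rises in its last part alone to 6.28-fold, and Myh13 stays below 1.

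H3K27me3, the repressive mark, covered the members in myoblasts and changed in opposite directions at the 2 ends of the fast cluster. In myoblasts 6 of the 8 promoters lay above the genome mean, against 18.2% of promoters. All 8 gene bodies did, against 24.7% of bodies. Myh3 (28 reads, 5.10-fold), Myh7 (24 reads, 4.37-fold) and Myh2 (23 reads, 4.19-fold) held the most. In myotubes 4 promoters, of Myh2, Myh4, Myh13 and Myh6, remained above the mean, against 12.7%.

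Called lower at the TSS were 3 members, against 9.56% of promoters. Myh3 went from 28 to 6 reads, a ratio of 0.300 (0.102 to 0.738). Myh7 went from 24 to 6, a ratio of 0.350 (0.117 to 0.879). Myh1 went from 10 to 1, a ratio of 0.140 (0.00322 to 0.984). The call at Myh1 was lost with the 5'-most TSS, with reads not extended and with thinned libraries. Over the 2 kb downstream of the TSS Myh7 alone was called, and within 500 bp no member was.

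No promoter that lacked a call in H3K4me3 was called in H3K27me3. Myh6 held 20 and 14 H3K27me3 reads, Myh13 13 and 10, and Myh2 23 and 11, with ratios of 0.980 (0.458 to 2.04), 1.08 (0.423 to 2.66) and 0.669 (0.295 to 1.43). Myh4 and Myh8, which gained H3K4me3, held 17 and 9 reads and 10 and 8 reads. In myotubes H3K27me3 lay above the genome mean at Myh4, at 2.29-fold (1.05 to 4.36), and not beyond its interval at Myh8, at 2.04-fold (0.881 to 4.02). Whether H3K4me3 and H3K27me3 lie in the same cells was not tested.

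Over the gene bodies 0 members were called lower, against 0.880% of bodies, and 2 were called higher, against 9.86%. Myh8 went from 103 to 151 reads, a ratio of 2.05 (1.59 to 2.66), and Myh13 from 247 to 361, a ratio of 2.05 (1.73 to 2.41). The call at Myh8 ended with the whole gene counted (1.97) and with thinned libraries (1.89). Myh4 lay just short of the call at 1.64 (1.30 to 2.07). Myh3, at the other end, went from 225 to 101, a ratio of 0.628 (0.492 to 0.798), with its interval below 1. Myh2 and Myh1 lay between at 0.972 and 1.13. The median of all bodies with enough reads was 1.18.

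The spaces between the genes mostly followed the same course. From Sco1 to Myh3 the ratio was 0.424 (0.253 to 0.683), between Myh3 and Myh2 0.653 (0.557 to 0.763), between Myh1 and Myh4 1.10 (0.732 to 1.63), between Myh4 and Myh8 1.80 (1.31 to 2.48), between Myh8 and Myh13 1.37 (0.897 to 2.09) and from Myh13 to Gas7 1.94 (1.62 to 2.33). The short space between Myh2 and Myh1 held 3 reads in each library, too few to call. Read counts went from 508 to 237 in the Myh3 to Myh2 space and from 214 to 297 in the 82.9 kb after Myh13. The space before Myh3 and that upstream of Myh7, at 0.482 (0.310 to 0.732), were called lower. Of spaces between protein-coding genes with enough reads, 1.11% were called lower. No space at the loci was called higher, against 1.76%.

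**Figure D3:**
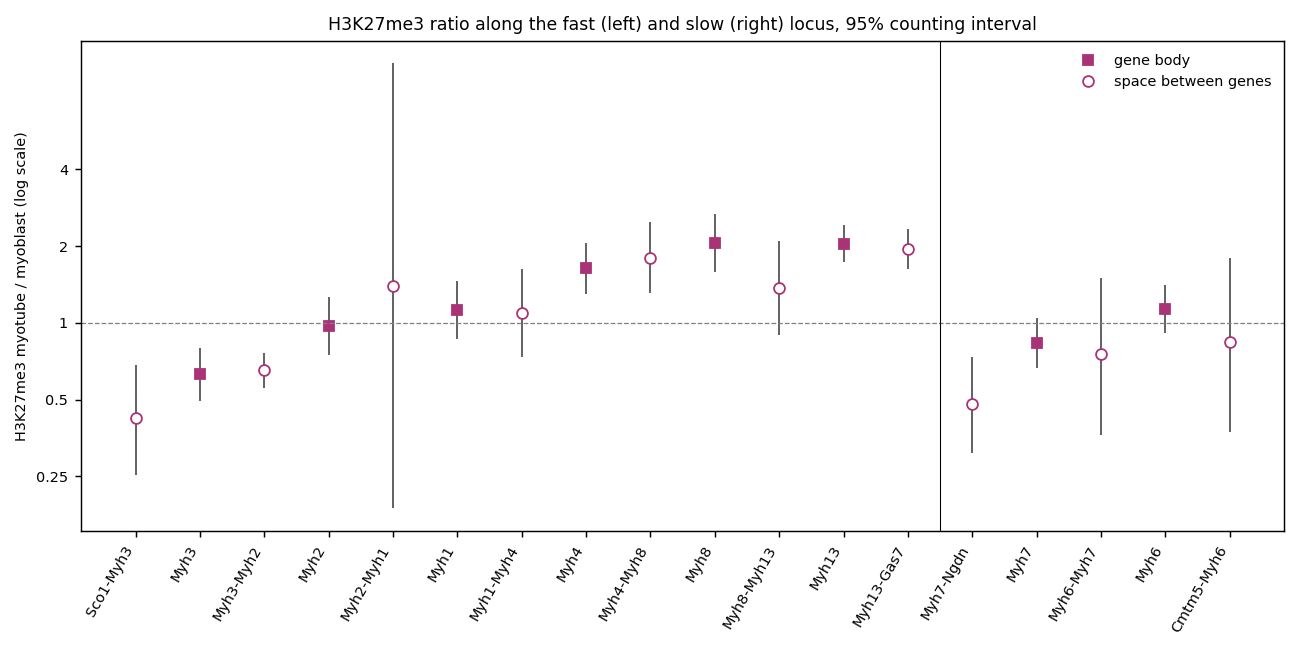
Ratio of H3K27me3 in myotubes to myoblasts on a log axis, for the gene bodies (filled squares) and the spaces between genes (open circles), in the order of transcription along chromosome 11 (left of the line) and chromosome 14 (right). Lines are 95% counting intervals. The ratio lies at 0.424 before Myh3 and at 2.05 over Myh8 and Myh13, with the regions between them mostly in between.

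The space between Myh3 and Myh2 carried the bulk of the gained acetylation. This stretch of 67.7 kb, at chr11:66915794-66983528, went from 31 to 1368 H3K27ac reads, or from 0.630-fold to 10.9-fold, a ratio of 17.4 (12.2 to 25.6). It held 51.6% (exact binomial interval 49.6 to 53.5) of the myotube H3K27ac reads counted from Sco1 to Gas7, and 28.7% (20.4 to 38.2) in myoblasts, on 68 of 388 bins of 1 kb. Of these 68 bins 39 lay above the genome mean in myotubes, against 4.78% of all bins, and 2 in myoblasts, against 3.27%.

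The same space rose in the other active marks. H3K4me1 went from 139 to 993 reads (ratio 7.38), H3K4me2 from 62 to 613 (8.92) and H3K4me3 from 74 to 301 (3.42). H3K27me3 above the genome mean shrank from 35 to 10 of the 68 bins, against 9.33% and 7.47% of all bins.

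The acetylation lay in separate blocks, which were picked for high H3K27ac in the myotube library, so that the rise in each follows from the choice. The bin with the most myotube H3K27ac in the spaces, chr11:66918001-66919000, held 160 reads, or 86.6-fold (73.7 to 101), against 4 in myoblasts, and lies 26.7 kb downstream of the Myh3 TSS. In it H3K4me1 went from 18 to 43 reads and H3K4me3 from 2 to 18. The block around it, at chr11:66914001-66924000, went from 11 to 522 H3K27ac reads.

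A second block of 17 kb, at chr11:66926001-66943000, went from 8 to 425 reads. It covers the minus-strand transcript 2310065F04Rik, at chr11:66925963-66933582. Within 1 kb of its TSS H3K27ac went from 1 to 120 reads, H3K4me3 from 1 to 10 and H3K27me3 from 18 to 3. Another block of 7 kb, at chr11:66976001-66983000 and just upstream of Myh2, went from 2 to 237 reads. The bin chr11:66978001-66979000 in it held 103 H3K27ac reads and 30 H3K4me1 reads, while the Myh2 TSS held 4 and 13. In the bin chr11:66946001-66947000, named after its values were seen, 54.7 kb from the Myh3 TSS and at no annotated protein-coding start, H3K4me3 went from 2 to 30 reads and H3K27ac from 2 to 29. Acetylation thus came close to the Myh2 promoter without being found on it.

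Beyond Myh1 the spaces were poor in H3K27ac. From Myh1 to Myh4 it went from 1 to 22 reads, from Myh4 to Myh8 from 4 to 14, from Myh8 to Myh13 from 6 to 30 and from Myh13 to Gas7 from 15 to 47. Their myotube folds were 0.973, 0.483, 1.35 and 0.307. The 10.2 kb before Myh3 went from 6 to 213 H3K27ac reads. Between Myh2 and Myh1, the 1.53 kb over 1 kb from the start of Myh1 went from 0 to 57 H3K27ac reads. Its H3K4me3 went from 0 to 50 reads. That short stretch lies wholly inside the antisense genes Gm10995 and 9430073C21Rik.

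Of the 10 spaces at both loci, 5 were called higher in H3K27ac, against 12.3% of spaces between protein-coding genes with enough reads. The stretch between Myh2 and Myh1 is counted among these called spaces and among those of the H3K4 marks. It lies inside Gm10995, a protein-coding gene, and such a stretch is not a space in the shares over all genes. H3K4me1 was called higher in 6 spaces, against 8.99%, H3K4me2 in 7, against 20.5%, and H3K4me3 in 6, against 3.08%. H3K36me3 was called higher in 6, against 3.42%, the highest at 21.2 between Myh6 and Myh7. The myoblast bin with the most H3K27ac in the fast spaces held 4 reads.

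**Figure D4:**
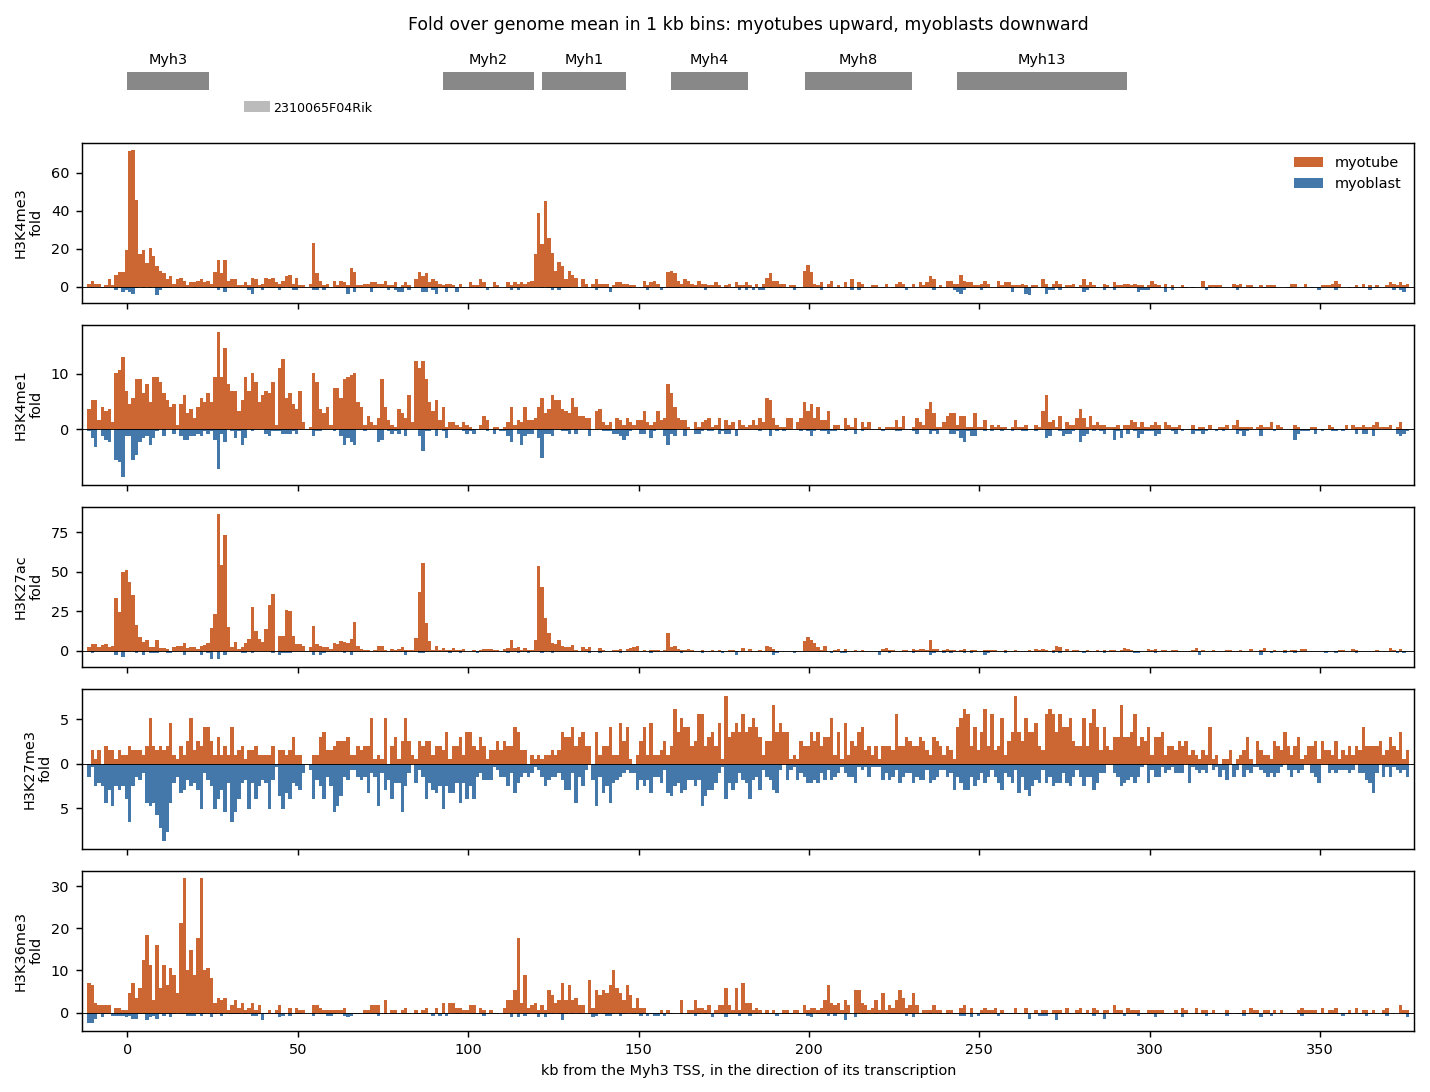
Fold over the genome mean in 1 kb bins along the fast and embryonic cluster, in kb from the Myh3 TSS, with myotubes drawn upward in orange and myoblasts downward in blue. Grey bars are genes. H3K27ac reaches 86.6-fold 26.7 kb from the Myh3 TSS, H3K4me3 crests lie at Myh3 and Myh1, and H3K27me3 is lower in myotubes on the left and higher on the right.

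At the slow and cardiac pair the active marks lay upstream of Myh7 and not between the genes. The 18.8 kb from Myh7 to Ngdn went from 12 to 236 H3K27ac reads, a ratio of 7.74 (4.35 to 15.2), and from 64 to 241 H3K4me1 reads, a ratio of 3.89 (2.94 to 5.21). H3K27me3 went from 90 to 31 reads there. All spaces of this locus together, on 26 of 76 bins of 1 kb, held 78.5% (73.8 to 82.7) of its myotube H3K27ac reads. In myoblasts they held 49.0% (34.8 to 63.4).

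The bin with the most H3K27ac in myotubes, chr14:55616001-55617000, lies 3.1 kb upstream of the Myh7 TSS and went from 5 to 61 reads, to 33.0-fold (25.3 to 42.4). H3K4me1 in it went from 10 to 30 reads and H3K4me3 from 2 to 7. In myoblasts it already held 6.88-fold H3K27ac. A second block, picked in the same way at chr14:55621001-55626000, went from 3 to 112 reads. The myoblast bin with the most H3K27ac in this space, with 12 reads, lies next to Ngdn at chr14:55633001-55634000 and held 15 in myotubes.

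At the Myh6 TSS no active mark was called. Its body held 17 and 16 H3K27ac reads in the 2 libraries, called lower after scaling at a ratio of 0.370 (0.175 to 0.779). In myoblasts it stood at 0.975-fold (0.568 to 1.56), so no acetylation above the genome mean was there to lose. In myotubes it stood at 0.361-fold (0.206 to 0.586). The share of all bodies called lower in H3K27ac is not given here. H3K4me1 over the body of Myh6 went from 72 to 59 reads, while over that of Myh7 it went from 29 to 93. H3K27me3 over the bodies was 193 and 157 reads at Myh6 (ratio 1.14, 0.916 to 1.41) and 213 and 127 at Myh7 (ratio 0.834, 0.664 to 1.04). In myotubes Myh7 stood at 2.83-fold (2.36 to 3.37) along its body and, called lower, at 1.53-fold (0.561 to 3.33) at its TSS. These intervals overlap, as do those of the ratios at its TSS and over its body.

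**Figure D5:**
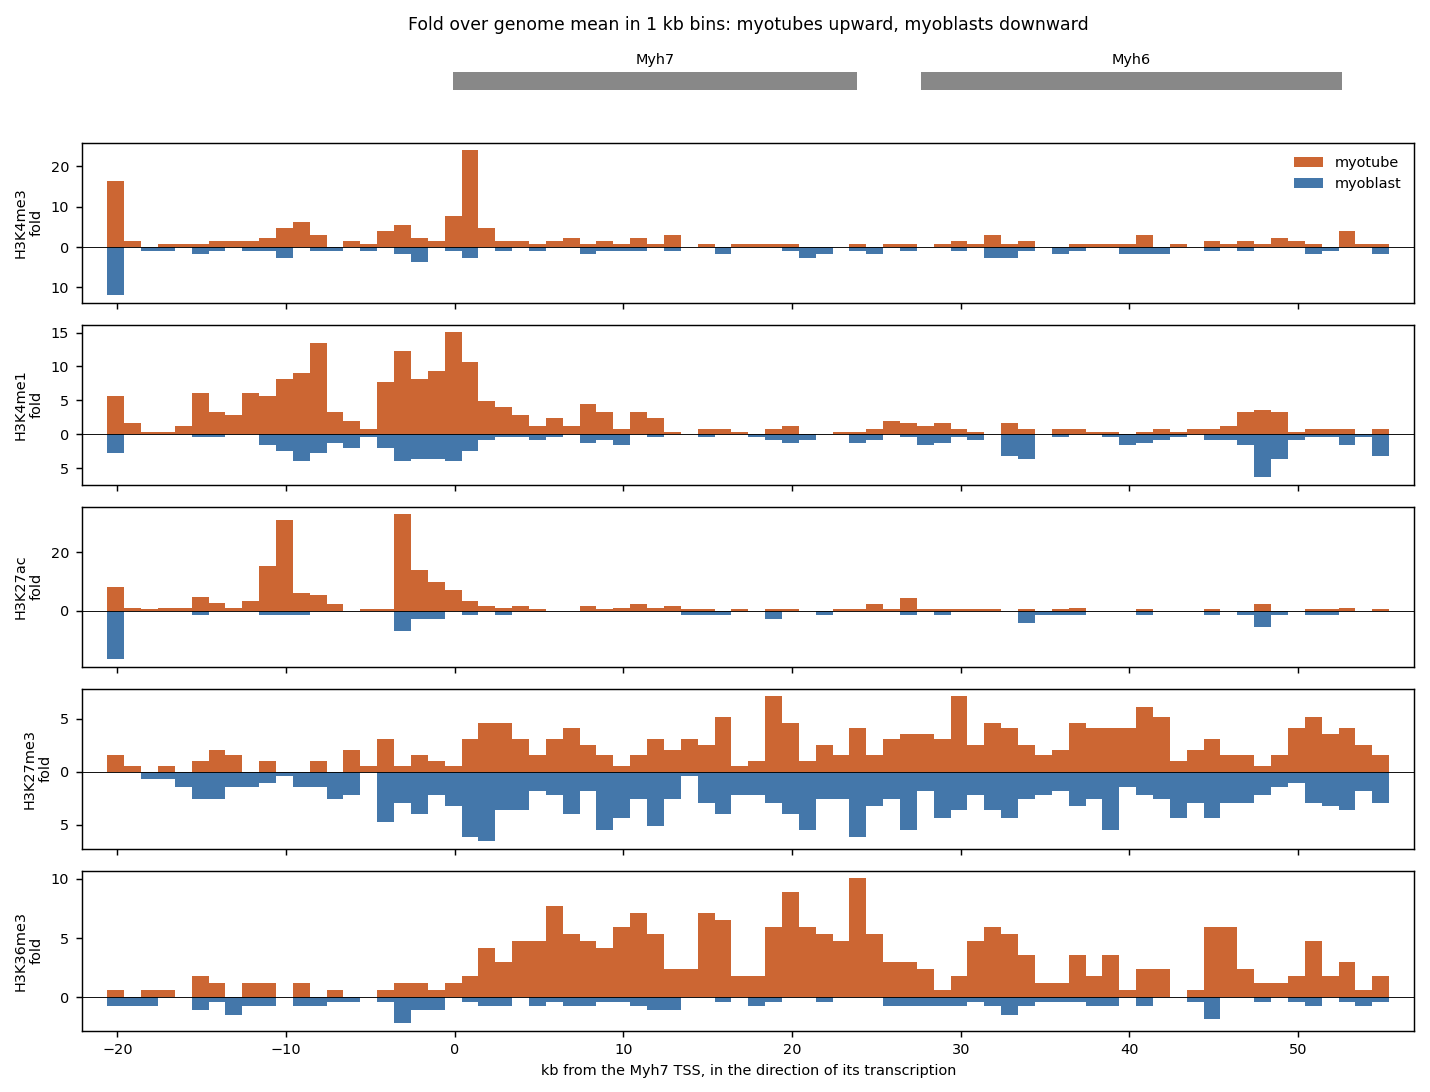
Fold over the genome mean in 1 kb bins along the slow and cardiac pair, in kb from the Myh7 TSS in the direction of transcription, with myotubes upward in orange and myoblasts downward in blue. H3K27ac stands at 33.0-fold 3.1 kb upstream of Myh7, and H3K36me3 lies over Myh7, at 5.59-fold in the gap after it and at 2.67-fold over the body of Myh6.

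Over the gene bodies Myh3 and Myh1 reached the highest myotube levels of H3K4me3, H3K4me2, H3K4me1 and H3K27ac. H3K4me3 was called higher over 5 bodies, against 5.50% of bodies, and H3K4me2 over 6, against 20.9%. H3K4me1 was called higher over 7, against 11.5%, and H3K27ac over 4, against 10.3%. Fewer bodies lay above the genome mean in myotubes, namely 2 in H3K4me2, 3 in H3K4me1 and 2 in H3K27ac. In H3K4me3 there were 4, with the uncalled Myh13 among them. The other called bodies stood within counting error of the genome mean. The shares of all bodies above it in these marks are not given here. Myh3 went from 19 to 360 H3K4me3 reads and Myh1 from 20 to 174. The antisense gene Gm10995 starts inside the body of Myh1, and the 1 kb either side of its start went from 3 to 80 H3K4me3 reads. Myh13, which gained no mark at its TSS, was called higher in H3K4me1 over its body, from 65 to 132 reads. The ratio was 2.10 (1.55 to 2.87). The level went from 0.525-fold, below the genome mean, to 1.10-fold (0.921 to 1.30), within counting error of it.

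The deposited peak lists gave the same set of promoters. In the myotube lists H3K4me3, H3K4me2 and H3K27ac each had a peak within 1 kb of the TSS of Myh3, Myh1, Myh4, Myh8 and Myh7, and the myoblast lists of H3K4me3 and H3K4me2 had none at any member. Of all promoters 48.8%, 52.9% and 42.2% had a peak in these myotube lists, and 48.6% and 56.7% in these myoblast lists. At a score of at least 100, H3K4me3 lost Myh4, H3K27ac lost Myh8, and H3K4me2 kept Myh3, Myh1 and Myh7. The myotube H3K4me1 list had a peak at Myh4, Myh8 and Myh7 but not at Myh3, which was called higher. That of H3K27me3 had a peak at the TSS of Myh2 alone. H3K36me3 peaks lay in 7 bodies in myotubes, against 49.0% of bodies, and in 0 in myoblasts, against 46.3%. The 2 myoblast lists for position 27 of H3 go against their labels. In the list that came with H3K27me3 the regions held 36.4-fold the genome mean of H3K27ac reads and 0.804-fold of H3K27me3 reads, and those of the other list 0.588-fold and 6.76-fold. The 2 promoter peaks at Myh6 and Myh7 that the deposited myoblast H3K27ac list gives are in regions of H3K27me3 reads, 20 and 24 per window, with 1 and 0 H3K27ac reads.

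Genes that work beside the myosin heavy chains rose as well. Among 36 partners in the sarcomere, 32 had enough H3K4me3 reads and 28 were called higher. The median ratio was 16.5 over those 32, beside 0.866 over all promoters with enough reads. Of the members, 5 of the 6 with enough reads were called higher. H3K27ac was called higher at 24 of the 31 partners with enough reads and H3K36me3 over 24 of 33 bodies. H3K27me3 at the TSS was called lower at 5 of the 18 partners with enough reads, beside 3 of the 8 members. It lay above the genome mean in myoblasts at 10 of the 36 partners and at 6 of the 8 members. The partners and the members are lists chosen by name, the partners with earlier results of these data known. These differences were not tested.

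Neb, which encodes nebulin, the ruler of the thin filament, had the highest H3K4me3 ratio among partners with a myoblast read, 135, from 1 to 161 reads. Tpm3, a tropomyosin gene, had the lowest, 0.675, from 142 to 114 reads, and was not called. In H3K27me3 the lowest ratio among partners with enough reads was 0.127 at Mybpc2, the fast myosin-binding protein C, from 11 to 1 read with H3K4me3 going from 0 to 10, and the highest was 2.24 at Ttn, the titin gene, from 5 to 8 reads.

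Of the 6 other myosin heavy chain genes, Myh7b alone was called higher in H3K4me3. Myh7b, a slow-type chain, went from 4 to 42 H3K4me3 reads (ratio 8.83), from 1 to 78 H3K27ac reads and from 25 to 5 H3K27me3 reads (ratio 0.280), the lowest H3K27me3 ratio of this list. Myh10, a nonmuscle chain, had the lowest H3K4me3 ratio, 0.518, from 112 to 69 reads, and was called lower in H3K27ac. Myh14, another nonmuscle chain, had the highest H3K27me3 ratio, 1.40, with 9 reads in each library.

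At the TSS, the 2 genes next to the loci with enough reads were not called in H3K4me3. Sco1, which encodes a copper chaperone, held 100 and 115 reads, and Ngdn 59 and 75, with ratios of 0.967 and 1.07. Gas7 held 5 and 1 reads and Cmtm5 4 and 3, under the minimum. H3K27me3 at the Cmtm5 TSS, on the Myh6 side, went from 14 to 22 reads and was called higher at 2.20. Over the bodies of these genes, 1 of the 3 with enough reads was called higher in H3K4me3, against 5.50% of bodies. In each of H3K4me2, H3K4me1 and H3K27ac, 1 body was called higher too, against 20.9%, 11.5% and 10.3%.

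The promoters most like each marked member were found by the distance over 12 log2 fold values at the TSS, 1 per library, after 1 read was added. This is a description over libraries that share cells and depth. The nearest to Myh3 were Trim63, Cacna1s and Myh7b at distances of 1.84, 2.39 and 2.91 on the log2 scale, where the median promoter was 9.55 away. The nearest to Myh1 were Myoz2, Ckm and Hspb3 at 2.14, 2.37 and 2.41, and to Myh7 Wfdc1, Asb2 and Ckm at 2.28, 2.47 and 2.60. Those of Myh4 were Esrrb, Zp3r and Stab2 at 1.59, 2.41 and 2.46, and those of Myh8 were Klk11, Rnase6 and Dhrs7c at 2.90, 3.12 and 3.47. Low counts weigh heavily in the distances of Myh4 and Myh8.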

How the data were processed

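ChIP-seq of 6 histone marks was measured in C2C12 myoblasts and myotubes, with 1 library per mark and cell type. The authors aligned the reads to mm9 with Mosaik, kept unique alignments and deposited each read of 34 bp as a count of 1. What was merged and whether duplicates were removed is not given in the sources used here. The authors called peaks with MACS and deposited each with a score, at least 50 in every list, with settings not given in the sources used here. The 2 myoblast lists for position 27 go against their labels and were read both ways, as deposited and exchanged. No input library was used here. Adaptor-ligated fragments of about 250 bp were amplified with 15 cycles of PCR, so reads are not independent molecules and intervals cover counting error only.

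Reads on chromosomes 1 to 19 and X (2555806925 bases other than N) were extended to 150 bp, and their midpoints were counted within 1000 bp of the TSS, over gene bodies, in spaces between genes and in bins of 1000 bp. Genes come from GENCODE M1. A gene with several starts was counted at the one with the most H3K4me3 reads in both cell types, and promoter sequence was read before the 5'-most one. Folds have exact Poisson and ratios exact conditional binomial intervals. A count of 0 was given a floor of 3 reads. Depth ran from 1858771 to 7033100 reads, and regions with fewer than 10 reads in both libraries together were not called. The lists of genes and the rule for naming them (the highest and lowest H3K4me3 and H3K27me3 ratio of each list) were chosen with earlier results of these data known. Alternatives changed the window, start, extension, duplicates, scaling, depth, call rule, background and peak score. On simulated H3K4me3 counts of 22342 promoters, 100% of those changed 4-fold were called and 0.761% of unchanged ones. For H3K27me3 lowered 4-fold the share was 69.0%, and 2.83% of unchanged ones were called. The changed promoters were drawn only from those well above the minimum of 10 reads. Their shares therefore do not cover promoters near that minimum. All counts were drawn with Poisson noise alone, so the shares also leave out reads that are not independent. The work was done in Python 3.11.15 with scipy 1.17.1 and numpy 2.4.6, tables were handled with pandas 2.3.3 and plots drawn with matplotlib 3.10.9.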

Additional observations from a re-analysis of the deposited data

How the results depend on the processing

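No value has a replicate, so nothing here measures the spread between cultures. Over the alternatives the 5 promoters called higher in H3K4me3 were the same genes throughout, as were the 7 bodies called higher in H3K36me3, also without the stretches that opposite-strand genes overlap, an alternative added after the data were seen. H3K27ac was called at 3 promoters within 500 bp of the TSS, at 3 over the 2 kb downstream only and at 2 with the larger library thinned, by which the shallow myoblast library limits the weaker promoters. Within 500 bp the ratio against the floor for H3K27ac at Myh4 fell to 0.787, since few myotube reads then stood against the floor of 3. H3K27me3 was called lower at 0 promoters within 500 bp and at 1 over the 2 kb downstream only, and over gene bodies at 1, Myh3, with a call fold of 1.5. H3K4me2 lost Myh4 within 500 bp and H3K4me1 lost Myh3 there and over the 2 kb downstream, and with 1 read per position H3K4me1 gained Myh2. Over the 12 libraries a deposited peak overlapped a member's promoter window in 22 cases, and in 12 at a score of at least 100. Of 767 other values recomputed, 732 kept their call or interval, 20 lost and 4 gained a call, and 10 moved outside their interval. The 1 that reversed was the ratio against the floor at Myh4 above. The cause was not tested. No paired analysis was possible because each group has 1 sample. With larger libraries the counts of 0 to 5 reads at Myh2, Myh13 and Myh6 would carry narrower intervals.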
